A study of Mus musculus with 30 samples.

Results

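Genes of sterol synthesis and of its control by the transcription factors SREBP1 and SREBP2 were followed in the jejunal mucosa of mice given exendin-4 or keratinocyte growth factor. The set holds 35 genes, chosen by gene symbol, of the 19057 genes with a named probe on the array. Where a gene had several probes, the one brightest on average over the 30 arrays stood for it. Of the 35, 32 had a named probe and 29 were tested among 13144 genes. Acat2, Hmgcs1 and Fdft1 had no probe named here and were not analysed. Ggps1, Mylip and Acaca were above the dim level, a log2 signal of 7.18 set from the background mode, on 0 of the 30 arrays and were not tested either. Of the 29, 25 lay above the dim level on all 30 arrays, and Mvk, Fasn, Scd1 and Scd2 did so on 23, 22, 24 and 25 arrays.

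The samples were scrapings of jejunal mucosa (the jejunum lies between duodenum and ileum), taken from male C57BL/6 mice aged 11 to 12 weeks that had not been fasted. Mice received 1 injection of Ex-4 (exendin-4, 10 nmol/kg, intraperitoneal), which activates the GLP-1 receptor, or of Fgf7 (human recombinant keratinocyte growth factor, 1 mg/kg), which acts on epithelial cells, or of PBS, the buffer control. Tissue was collected 1, 5 or 20 h later, with 3 arrays per group at 1 h, 4 at 5 h and 3 at 20 h. All mice were on a standard diet, and no group carried a genetic change.

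Cholesterol is built from acetyl-CoA through mevalonate, isoprenoids and squalene, and its enzymes are among the best known targets of SREBP2. When sterols in the endoplasmic reticulum are plentiful, Insig proteins hold the escort protein Scap and the SREBP precursor there. When sterols run low, Scap carries the precursor to the Golgi, where proteases release the active factor. SREBP1 acts more on genes of fatty acid synthesis. The small intestine both makes cholesterol and takes it up from bile and food.

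The 30 arrays had equal medians of 7.14 and nearly equal values at each rank, so the medians say nothing about array quality. Arrays of 1 group correlated across genes with r = 0.988 to 0.996. The median r was 0.993 within groups and 0.9915 between arrays of different groups. Of 13 enterocyte markers, 12 lay above the dim level on all arrays, with gene means of 12.12 to 14.98. Of 8 pancreatic acinar markers, 5 of them with a named probe, and of 2 ileal markers, 0 did so. Of 5 hepatocyte markers 1 did. On at least 3 arrays, 3 acinar, 1 ileal and 2 hepatocyte markers lay above the dim level. Their gene means were 7.09 to 7.31, 7.25, and 7.22 to 8.63. The mean of 15 smooth muscle genes, centred on each gene's mean, was 0.85 on Ex-4 5 h replicate 1, 1.13 on Fgf7 5 h replicate 2, 1.94 on PBS 1 h replicate 3 and 1.95 on PBS 5 h replicate 3, against -0.46 to 0.18 on the other arrays. Without these 4 muscle-rich arrays some calls were lost. Values are then given for the members against PBS at 5 h and for the change from 1 to 5 h. They are also given for the Insig1 probes and the other genes named. For the members against Fgf7 and for the change from 5 to 20 h, only the count and the genes that still passed are given. In a bulk sample, a change in the share of a cell type and a change of RNA per cell cannot be told apart.

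The promoters of the genes that rose at 5 h after Ex-4 are shown first, because motifs of SREBP2 and its partner factors were searched there. Binding was not measured. RefSeq entries (GRCm38.p6) existed for 28 of the 35 genes and for 7 of the 9 that rose, with none given here for Fdps and Sqle. The 250 bases before each start are printed 5′ to 3′ on the gene's strand. Capitals mark the CCAAT box (CCAAT, or ATTGG where it lies on the other strand), the E-box CACGTG and the shortened sterol element ATCACCNCA.
Mvd, chr8:122443423-122443672, minus strand: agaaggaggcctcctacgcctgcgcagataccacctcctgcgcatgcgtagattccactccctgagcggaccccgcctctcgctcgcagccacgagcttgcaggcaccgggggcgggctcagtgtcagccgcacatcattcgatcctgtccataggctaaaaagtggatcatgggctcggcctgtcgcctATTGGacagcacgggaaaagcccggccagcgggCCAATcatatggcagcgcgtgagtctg
Lss, chr10:76531355-76531604, plus strand: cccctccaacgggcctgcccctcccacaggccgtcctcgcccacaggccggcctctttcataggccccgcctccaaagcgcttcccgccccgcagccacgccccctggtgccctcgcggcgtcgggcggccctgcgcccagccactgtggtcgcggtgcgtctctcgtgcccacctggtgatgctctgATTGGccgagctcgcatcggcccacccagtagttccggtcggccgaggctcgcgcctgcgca
Cyp51, chr5:4104698-4104947, minus strand: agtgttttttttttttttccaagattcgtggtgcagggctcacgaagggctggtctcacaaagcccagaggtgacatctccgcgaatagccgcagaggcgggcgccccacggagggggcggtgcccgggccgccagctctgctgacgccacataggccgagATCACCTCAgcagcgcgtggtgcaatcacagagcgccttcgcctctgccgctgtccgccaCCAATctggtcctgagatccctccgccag
Msmo1, chr8:64733579-64733828, minus strand: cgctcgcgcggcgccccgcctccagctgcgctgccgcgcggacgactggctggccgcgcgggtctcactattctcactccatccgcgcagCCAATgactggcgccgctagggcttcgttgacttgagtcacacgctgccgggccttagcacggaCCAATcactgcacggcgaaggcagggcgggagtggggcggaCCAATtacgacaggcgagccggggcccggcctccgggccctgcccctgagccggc
Hsd17b7, chr1:169969206-169969455, minus strand: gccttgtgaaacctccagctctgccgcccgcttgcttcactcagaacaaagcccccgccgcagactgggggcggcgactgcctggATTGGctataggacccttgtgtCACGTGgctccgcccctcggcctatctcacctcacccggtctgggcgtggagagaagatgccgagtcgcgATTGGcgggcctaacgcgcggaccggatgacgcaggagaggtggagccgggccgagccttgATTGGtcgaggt
Srebf2, chr15:82147019-82147268, plus strand: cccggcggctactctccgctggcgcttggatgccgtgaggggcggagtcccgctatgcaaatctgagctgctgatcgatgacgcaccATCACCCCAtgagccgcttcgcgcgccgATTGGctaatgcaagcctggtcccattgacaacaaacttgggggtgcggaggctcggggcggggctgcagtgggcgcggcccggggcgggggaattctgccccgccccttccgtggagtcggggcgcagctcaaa
Aacs, chr5:125475623-125475872, plus strand: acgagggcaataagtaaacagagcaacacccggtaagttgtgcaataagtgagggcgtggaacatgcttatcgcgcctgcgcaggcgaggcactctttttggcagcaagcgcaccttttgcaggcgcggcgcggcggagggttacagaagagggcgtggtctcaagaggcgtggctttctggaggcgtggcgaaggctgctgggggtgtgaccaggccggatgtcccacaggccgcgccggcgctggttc

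Both strands were searched for 6 motifs, counted in bases before the start. The classical 10-base sterol regulatory element was found before 0 of the 28 genes, and in 0.0731% of the 32851 promoters of the RefSeq table. Its core TCACNCCAC was found before Hmgcs1 only, and in 1.05% of all promoters. The shortened form ATCACCNCA, chosen after the sequences had been read, stood before Cyp51 at base -89 and before Srebf2 at base -163, and in 0.645% of all promoters. The CCAAT box, which binds the factor NF-Y, was found for 21 of 28 genes (75.0%), against 37.5% of all 27025 genes in the table. It stood 3 times each before Msmo1 and Hsd17b7, 2 times before Mvd, once each before Lss, Cyp51 and Srebf2, and not before Aacs. Among the genes that rose it was found for 6 of 7, and among the other members for 15 of 21. The GC box GGGCGG, which binds factors of the Sp family, was found for 22 of 28 genes (78.6%), against 35.4% of all genes. The E-box was found for 5 of 28 genes (17.9%), Dhcr7, Hsd17b7, Insig1, Sc5d and Scap, against 6.86% of all genes. A match is only a run of letters in this window, and a missing match says nothing about binding.

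Against PBS, Ex-4 raised 9 of the 29 tested genes at 5 h and lowered 0, by limma's test with Benjamini-Hochberg adjustment over all 13144 genes. They were 2 enzymes of the mevalonate and isoprenoid steps, 5 of the steps from squalene to sterol, Srebf2 and Aacs, and the rises were 1.29-fold to 2.09-fold. Over all genes tested, 0.388% rose and 0.517% fell. The median log2 difference was 0.25 for the 29 genes and 0.42 for the 15 sterol synthesis enzymes, against 0.00 for all genes. Of the 29 genes 23 lay above 0, where 50.9% of all genes did. The labels call the replicates separate samples, so the p-values rest on the spread among those arrays only.

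**Figure D1:**
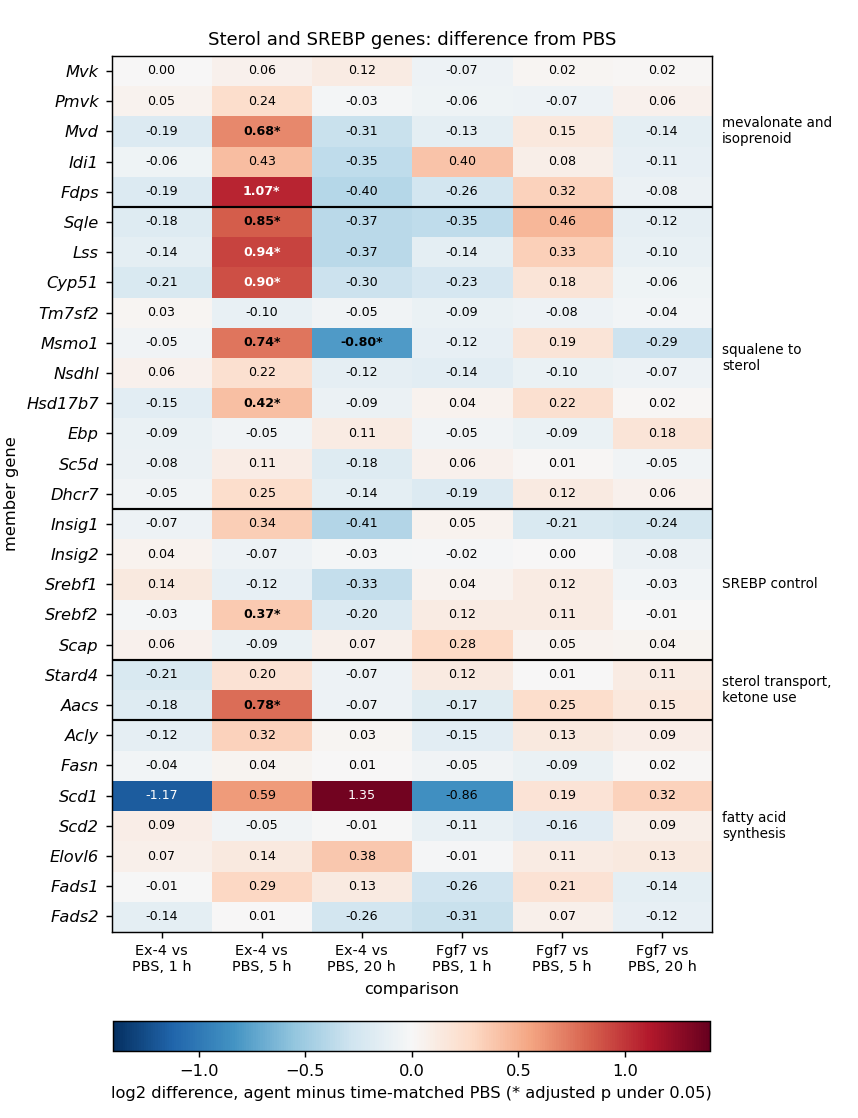
Log2 difference of Ex-4 and of Fgf7 from the PBS group of the same time for each of the 29 tested genes (rows, grouped by role) in 6 comparisons (columns), with an asterisk where the adjusted p was under 0.05. Asterisks stand in 9 cells for Ex-4 at 5 h, in 1 cell for Ex-4 at 20 h and in none of the other 4 columns.

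In the early part of the pathway, Mvd and Fdps rose. Mvd, which decarboxylates diphosphomevalonate, had log2 signals of 9.10, 8.61, 9.07 and 8.79 on the Ex-4 arrays and of 8.24, 8.47, 7.95 and 8.20 on the PBS arrays at 5 h. The groups did not overlap, and the difference was 0.68 ± 0.12 (SE, n = 4 per group; adjusted p = 0.00619). Fdps, which makes farnesyl diphosphate, the branch point to sterols and prenylated proteins, had 11.99, 11.55, 11.77 and 11.53 on the Ex-4 arrays and 10.76, 11.08, 10.27 and 10.45 on the PBS arrays. Its rise of 1.07 ± 0.17 (2.09-fold; adjusted p = 0.00138) exceeded the spread within both groups, and its second probe rose as well (0.60, adjusted p = 0.00117). The phosphorylating enzymes Mvk (0.06) and Pmvk (0.24, adjusted p = 0.306) did not pass, nor did the isomerase gene Idi1 (0.43, 95% interval -0.05 to 0.91; adjusted p = 0.511).

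Of the 10 tested genes that act between squalene and cholesterol, 5 rose. Sqle, squalene epoxidase, a rate-limiting oxygen-using step, had 11.28, 10.61, 11.24 and 10.81 on the Ex-4 arrays and 10.20, 10.35, 9.97 and 10.02 on the PBS arrays, a difference of 0.85 ± 0.15 (adjusted p = 0.00471). Lss, which closes the sterol rings, had 9.61, 9.18, 9.61 and 9.20 on the Ex-4 arrays and 8.38, 8.69, 8.32 and 8.43 on the PBS arrays (0.94 ± 0.12; adjusted p = 0.000185). In both genes the lowest Ex-4 array stood above the highest PBS array. The second probe of Lss, of low signal (mean 7.39), gave -0.12 (adjusted p = 0.487), so the rise of Lss rests on 1 probe. The second probe of Sqle gave 0.52 (adjusted p = 0.119), and a further dim probe gave 0.02. Mvd, Cyp51, Msmo1 and Aacs had 1 named probe each, and the other probe of Hsd17b7 was dim. The rises of these genes also rest on 1 probe.

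Cyp51, the lanosterol demethylase, had 9.89, 9.62, 9.99 and 9.82 on the Ex-4 arrays and 9.02, 9.10, 8.72 and 8.89 on the PBS arrays, a rise of 0.90 ± 0.14 (adjusted p = 0.00138). Msmo1, the methylsterol monooxygenase of the C4 demethylation steps, had 12.69, 12.64, 12.44 and 12.57 on the Ex-4 arrays and 11.68, 11.93, 11.66 and 12.08 on the PBS arrays (0.74 ± 0.09; adjusted p = 0.000185). Hsd17b7, the ketosteroid reductase of the same demethylation complex, had 10.81, 10.58, 10.91 and 10.68 on the Ex-4 arrays and 10.18, 10.41, 10.39 and 10.33 on the PBS arrays (0.42 ± 0.07; adjusted p = 0.00491). All 3 genes were higher on every Ex-4 array than on any PBS array at 5 h. Nsdhl, which works between these enzymes, had a difference of 0.22 (adjusted p = 0.424), and its 3 other probes gave 0.13, 0.20 and 0.29.

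The other tested genes between squalene and cholesterol did not pass. Tm7sf2, a C14 sterol reductase that acts between Cyp51 and Msmo1, differed by -0.10 (95% interval -0.25 to 0.05). Dhcr7, the last reductase of one branch, differed by 0.25 (adjusted p = 0.201) with all Ex-4 arrays above all PBS arrays. The differences were 0.11 for the desaturase gene Sc5d and -0.05 for the isomerase gene Ebp. The 95% intervals ran from 0.07 to 0.42 for Dhcr7, -0.09 to 0.31 for Sc5d and -0.18 to 0.09 for Ebp.

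Of the 5 genes that control SREBP, Srebf2, which encodes SREBP2, rose. It had 8.85, 8.62, 8.83 and 8.86 on the Ex-4 arrays and 8.26, 8.54, 8.46 and 8.42 on the PBS arrays, a difference of 0.37 ± 0.08 (adjusted p = 0.0194). The groups did not overlap, and the second probe of Srebf2 rose by 0.35 (adjusted p = 0.00925). Srebf2 passed in 4 of the 8 fits that left out 1 array of these groups, with an adjusted p of up to 0.0971, while the other 8 genes passed in all 8. Srebf1 (-0.12), the escort gene Scap (-0.09) and Insig2 (-0.07) did not pass.

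Insig1, whose product retains Scap and whose transcription is itself driven by SREBP, gave different results by probe. The brightest probe, which the choice of members uses, had 9.56, 9.72, 9.88 and 10.57 on the Ex-4 arrays and 9.66, 9.48, 9.43 and 9.78 on the PBS arrays, which overlap (0.34, adjusted p = 0.56). The second probe had 9.90, 9.43, 8.92 and 9.14 on the Ex-4 arrays and 8.45, 8.77, 8.07 and 8.09 on the PBS arrays, and rose by 1.00 ± 0.16 (adjusted p = 0.00196 over genes and further probes). The third had 9.66, 9.27, 8.91 and 9.24 on the Ex-4 arrays and at most 8.85 on the PBS arrays, and rose by 1.00 ± 0.18 (adjusted p = 0.00422). Both of these probes were higher on every Ex-4 array, and the remaining probe of Insig1 was dim. Without the 4 muscle-rich arrays the rises were 0.72 (adjusted p = 0.0532) and 0.78 (adjusted p = 0.063) and did not pass. Insig1 is not counted among the 9 genes, since its brightest probe did not pass.

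Aacs, which activates the ketone body acetoacetate for lipid synthesis, had 10.28, 9.68, 10.18 and 9.84 on the Ex-4 arrays and 9.10, 9.53, 9.11 and 9.13 on the PBS arrays at 5 h. The groups did not overlap, and the rise was 0.78 ± 0.13 (adjusted p = 0.0017). Stard4, a cytosolic sterol carrier, differed by 0.20 (adjusted p = 0.277). Of the 7 tested genes of fatty acid synthesis and desaturation, 0 passed. The closest was Acly (0.32, adjusted p = 0.0804), which supplies cytosolic acetyl-CoA for sterols as well as fatty acids.

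**Figure D2:**
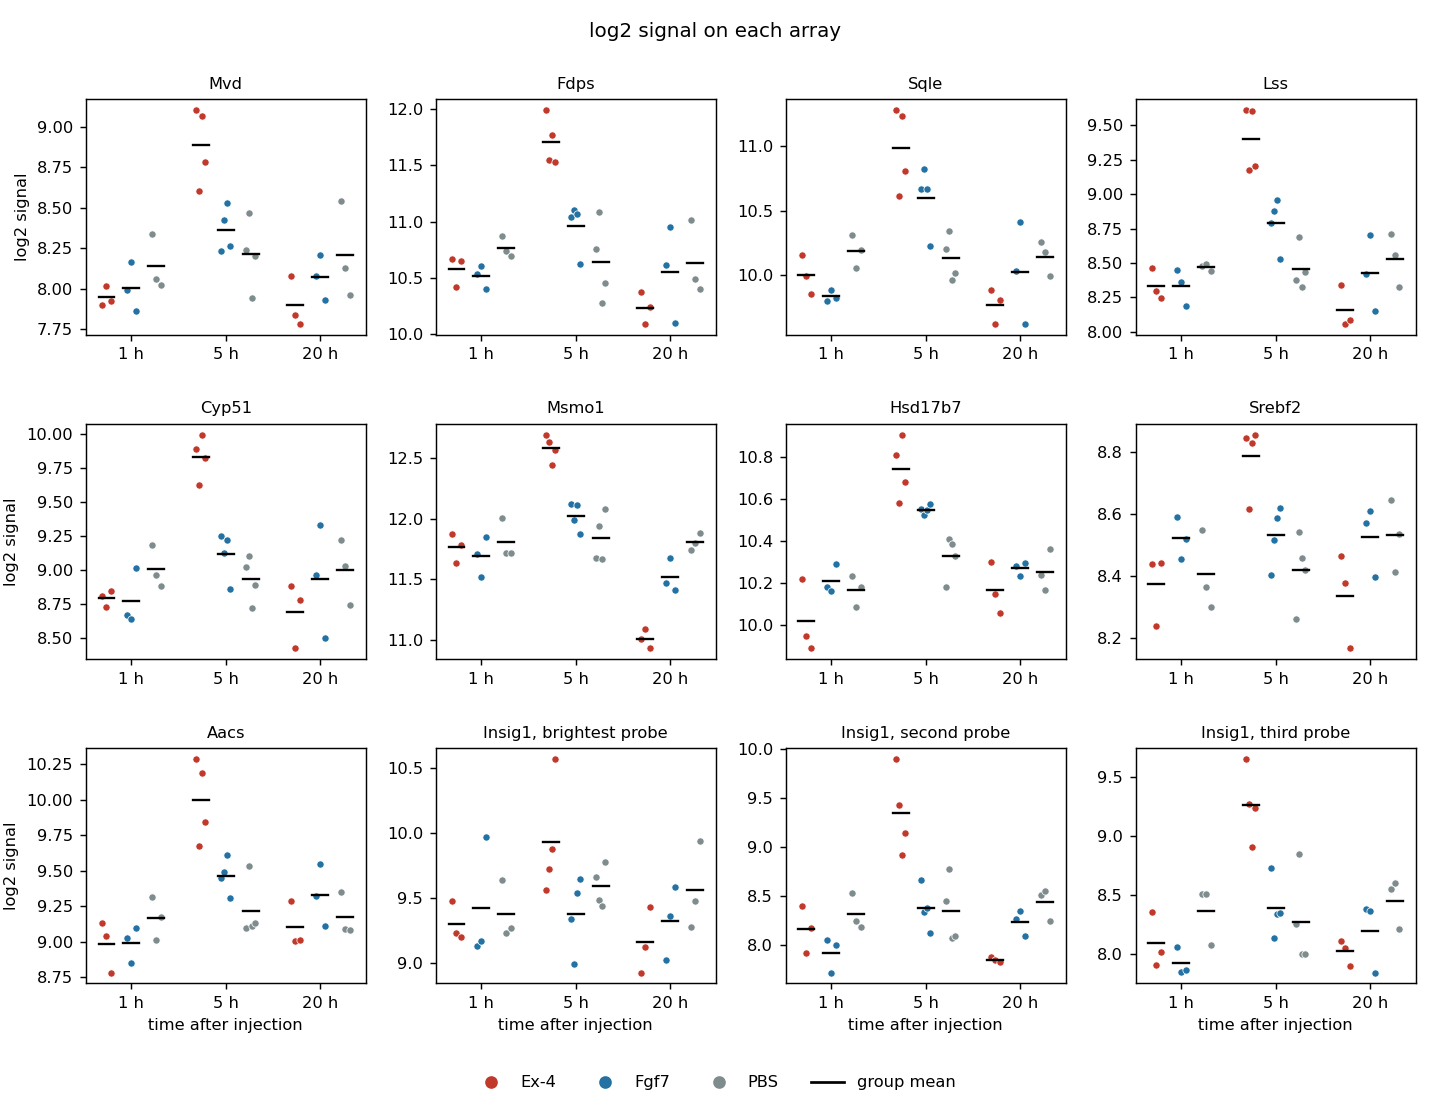
Log2 signal on each array (points) with the group mean (black line) at 1, 5 and 20 h for the 9 genes that rose at 5 h after Ex-4 and for 3 probes of Insig1, with Ex-4 in red, Fgf7 in blue and PBS in grey. At 5 h the lowest Ex-4 point lies above the highest PBS point for each of the 9 genes and for the second and the third probe of Insig1, and at 20 h Msmo1 lies lowest in Ex-4 with 10.93 to 11.09.

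In all, 13 of the 29 genes had every Ex-4 array above every PBS array at 5 h and 0 had the reverse, against 2.75% and 3.14% of all genes. The 13 were the 9 that passed with Dhcr7, Stard4, Acly and Fads1. Averaged over the 15 sterol synthesis enzymes, with each gene centred on its mean, the arrays lay at 0.30 to 0.50 after Ex-4 and at -0.18 to 0.08 after PBS. Smooth muscle genes moved too, with 15 of 15 below 0 at this time (median -0.22, 0 passed), and a PBS array had the most of this signal. Their part in the result was not tested beyond a pair of fits. With their mean as a covariate 9 genes passed, and on leaving out the 4 muscle-rich arrays 3 did, Lss, Msmo1 and Cyp51, with differences of 0.83, 0.65 and 0.81. The differences of the other 6 were then 0.85 for Fdps, 0.70 for Sqle, 0.65 for Aacs, 0.52 for Mvd, 0.41 for Hsd17b7 and 0.36 for Srebf2, with adjusted p-values of 0.0512 to 0.116. When only these groups were fitted, the same genes, Lss, Msmo1 and Cyp51, passed. The share of all genes that passed in these fits is not given here. Whether the loss of calls is particular to the members was not tested. Markers of proliferating crypt cells lay above 0 in 8 of 8 genes after Ex-4 (median 0.26) and in 8 of 8 after Fgf7 (median 0.17) at 5 h, with 0 passed in both. Paneth cell markers lay above 0 in 5 of 5 genes after Ex-4 (median 0.43, 0 passed). Enterocyte markers lay below 0 in 8 of 12 genes after Ex-4 (median -0.09, 0 passed). Of these 12, 3 had every Ex-4 array below every PBS array, against 3.14% of all genes. The part of the crypt, Paneth and enterocyte lists in the result was not tested.

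Set against Fgf7 at 5 h, 6 genes were higher after Ex-4 and 0 lower, where 0.221% of all genes were higher and 0.335% lower. Msmo1 lay at 12.44 to 12.69 on the Ex-4 arrays and at 12.12, 11.99, 12.12 and 11.87 on the Fgf7 arrays (0.56 ± 0.09; adjusted p = 0.00406). Cyp51 lay at 9.62 to 9.99 after Ex-4 and at 9.25, 9.12, 9.22 and 8.85 after Fgf7 (0.72 ± 0.14; adjusted p = 0.0152). Neither gene overlapped between the agents. Lss lay at 9.18 to 9.61 after Ex-4 and at 8.79, 8.88, 8.96 and 8.53 after Fgf7 (0.61 ± 0.12; adjusted p = 0.0159). Fdps lay at 11.53 to 11.99 after Ex-4 and at 11.04, 11.10, 11.07 and 10.62 after Fgf7 (0.75 ± 0.17; adjusted p = 0.0335). These groups were apart as well.

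Mvd lay at 8.61 to 9.10 after Ex-4 and at 8.23, 8.43, 8.53 and 8.26 after Fgf7 (0.53 ± 0.12; adjusted p = 0.0485). Aacs lay at 9.68 to 10.28 after Ex-4 and at 9.45, 9.49, 9.61 and 9.31 after Fgf7 (0.53 ± 0.13; adjusted p = 0.0485). The groups did not overlap in either gene. In all, 9 members had every Ex-4 array above every Fgf7 array and 0 the reverse, against 2.17% and 2.91% of all genes. The 9 were these 6 with Pmvk, Nsdhl and Hsd17b7. For 3 of the 9 genes raised by Ex-4 the agents could not be told apart by the test. The difference was 0.39 for Sqle (95% interval 0.08 to 0.69), 0.19 for Hsd17b7 (0.04 to 0.34) and 0.26 for Srebf2 (0.09 to 0.42), all with intervals above 0 before adjustment. The count of 6 was 1 without Ex-4 replicate 3 or without Fgf7 replicate 4, and 2 without Ex-4 replicate 1 or Fgf7 replicate 1. It was 1 when the 4 muscle-rich arrays were left out, and Msmo1 passed in all of these fits. The share of all genes that passed in them is not given here. The second and the third probe of Insig1 were also higher after Ex-4, by 0.97 and 0.88 (adjusted p = 0.00408 and adjusted p = 0.0146), and by 0.77 (adjusted p = 0.0434) and 0.67 (adjusted p = 0.126) without the muscle-rich arrays. Paneth cell markers lay above 0 in 5 of 5 genes in this comparison (median 0.33) and crypt markers in 5 of 8 (median 0.03). Smooth muscle genes lay below 0 in 14 of 15 (median -0.10) and enterocyte markers in 8 of 12 (median -0.04). Of all these genes 0 passed, and their part was not tested.

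**Figure D3:**
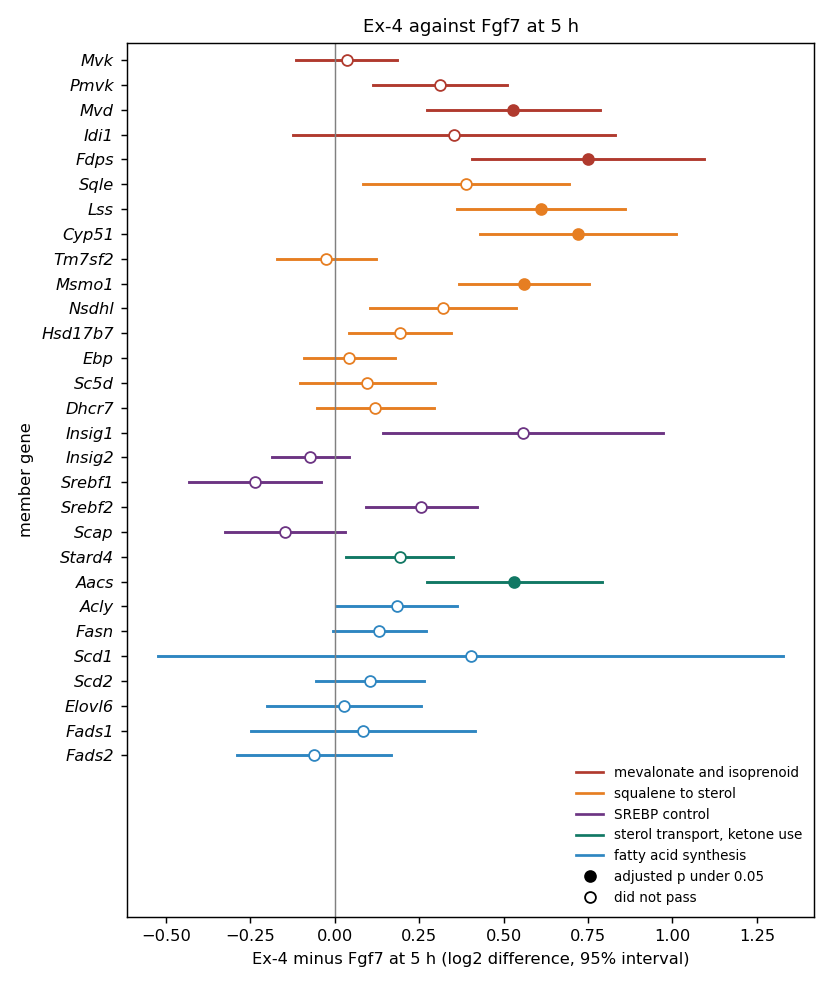
Difference between Ex-4 and Fgf7 at 5 h in log2 signal for the 29 tested genes, with 95% intervals; colours give the role and filled points an adjusted p under 0.05. Filled points are Mvd, Fdps, Lss, Cyp51, Msmo1 and Aacs, all right of 0.

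Against PBS at 5 h, Fgf7 raised 0 of the 29 genes and lowered 0, where 0.213% of all genes passed. An unadjusted p under 0.05 was found for 3 of the 29, and for 901 of all 13144 genes. Those 3 were Sqle (0.46 ± 0.15; adjusted p = 0.334), Lss (0.33, adjusted p = 0.468) and Hsd17b7 (0.22, adjusted p = 0.362). Hsd17b7, at 10.55, 10.52, 10.55 and 10.58 after Fgf7 and at 10.18 to 10.41 after PBS, was the 1 member without overlap, with 0 the other way, against 2.02% of all genes higher and 1.22% lower without overlap. The median over the 29 genes was 0.11, with 22 above 0, where 50.9% of all genes were. This comparison and the 2 others at 5 h share arrays.

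A single sterol synthesis gene of the 15 tested passed at 20 h for Ex-4 against PBS. It was Msmo1, which fell, with 11.01, 11.09 and 10.93 on the Ex-4 arrays and 11.74, 11.80 and 11.88 on the PBS arrays, a difference of -0.80 ± 0.11 (SE, n = 3 per group), or 1.74-fold lower (adjusted p = 4.71e-05). No other member was called, where 2.3% of all genes passed, 1.29% lower and 1% higher. The Fgf7 arrays lay between, at 11.46, 11.67 and 11.41. Ex-4 was lower than Fgf7 by 0.51 ± 0.11 (adjusted p = 0.00903, where 1.76% of all genes passed, 1.12% lower and 0.639% higher), and this call was lost without Fgf7 replicate 2 (adjusted p = 0.0729). Against Fgf7, 3 members had every Ex-4 array lower, Msmo1, Srebf1 and Scd2, and 1, Insig2, every array higher, where 7.41% and 6.16% of all genes did. Fgf7 against PBS gave -0.29 ± 0.11 for Msmo1 (adjusted p = 0.999), without overlap.

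Of the 15 sterol synthesis enzymes 13 lay below 0 at 20 h after Ex-4 (median -0.18), where 53.9% of all genes lay above 0. Mvk (0.12) and Ebp (0.11) were the exceptions. Crypt markers lay above 0 in 8 of 8 genes at this time (median 0.23) and immune cell markers below 0 in 7 of 7 (median -0.12), with 0 passed in both. Enterocyte markers lay below 0 in 8 of 12 genes (median -0.09), and 1 passed. Of these 12, 4 had every Ex-4 array below every PBS array, against 7.16% of all genes. The part of these lists was not tested. Fdps (-0.40), Lss (-0.37), Sqle (-0.37), Mvd (-0.31) and Cyp51 (-0.30) had adjusted p-values of 0.21 to 0.486. Of the 29 members, 5 had every Ex-4 array below every PBS array and 1, Mvk, the reverse, against 7.16% and 7.94% of all genes. The 5 were Msmo1, Fdps, Sqle, Dhcr7 and Srebf1. Srebf1 had 7.81, 7.89 and 7.63 on the Ex-4 arrays and 8.08, 8.17 and 8.07 on the PBS arrays (-0.33, adjusted p = 0.137). The second and the third probe of Insig1 gave -0.58 and -0.43 (adjusted p = 0.13 and adjusted p = 0.38).

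The change of the Ex-4 effect between the times was tested directly, as the difference from PBS at 20 h minus that at 5 h. Of the 29 members 9 passed this test, each with a lower value at 20 h. Of all genes 0.951% passed, 0.464% lower and 0.487% higher. The 9 were the genes raised at 5 h. The arrays that gave that rise also enter this test, so selection by the rise favours a lower value here. Msmo1 changed by -1.54 (adjusted p = 3.55e-07), Fdps by -1.47 (adjusted p = 0.00257), Lss by -1.32 (adjusted p = 0.000248) and Sqle by -1.23 (adjusted p = 0.00496). The others were Cyp51 (-1.20), Mvd (-0.99), Aacs (-0.85), Srebf2 (-0.56) and Hsd17b7 (-0.50), with adjusted p-values of 0.00345 to 0.023. The second and the third probe of Insig1 changed by -1.58 (adjusted p = 0.000941) and -1.43 (adjusted p = 0.00492). For this change of effect, immune cell markers lay below 0 in 7 of 7 genes (median -0.24) and Paneth cell markers in 4 of 5 (median -0.35), with 0 passed, and their part was not tested. When the 4 muscle-rich arrays were left out 5 genes passed, Cyp51, Fdps, Lss, Msmo1 and Sqle. The share of all genes that passed in that fit is not given here.

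The 2 Ex-4 effects share no array, so they can be set beside each other across genes, which are not independent replicates. The sign differed between 5 and 20 h for 13 of the 15 sterol synthesis genes (86.7%), where it differed for 46.1% of all genes, and the effects correlated with r = -0.758 across the 15 genes and 0.156 across all. Across the 7 fatty acid genes r was 0.822, with 1 of opposite sign. Scd1 had the highest value at both times, and without it, as computed after this was seen, r was 0.401.

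**Figure D4:**
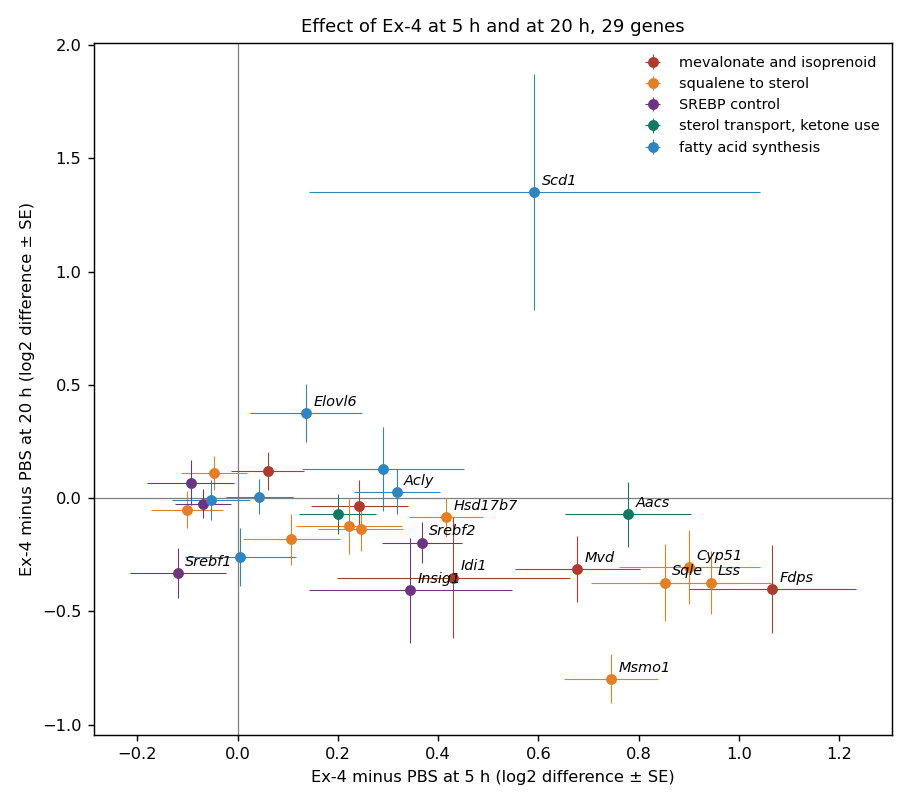
Effect of Ex-4 against PBS at 5 h (horizontal axis) and at 20 h (vertical axis) in log2 difference ± SE for the 29 tested genes, coloured by role. The genes that rose at 5 h lie right of 0 and below 0, with Msmo1 lowest at -0.80, while Scd1 lies at 0.59 and 1.35 with wide bars.

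The earliest time gave few differences. For Ex-4 against PBS at 1 h the count of members that passed by limma was 0, and 2 had an unadjusted p under 0.05, where 0% of all genes passed and 384 had such a p. They were Stard4 (-0.21) and Scd1 (-1.17 ± 0.52). Mvd, Fdps, Cyp51 and Stard4, 4 members, were lower on every Ex-4 array than on any PBS array and 0 were higher, where 4.82% and 5.14% of all genes were. The later rise was set against this time too. The Ex-4 effect at 5 h exceeded that at 1 h for 6 members, where 0.0685% of all genes were higher. These were Fdps (1.26, adjusted p = 0.0362), Cyp51 (1.11, adjusted p = 0.0275), Lss (1.08, adjusted p = 0.0275), Aacs (0.96, adjusted p = 0.0344), Msmo1 (0.79, adjusted p = 0.0275) and Hsd17b7 (0.56, adjusted p = 0.0344). Smooth muscle genes lay below 0 in 14 of 15 at 1 h after Ex-4 (median -0.90), and above 0 in 13 of 15 for the effect at 5 h minus that at 1 h (median 0.44), with 0 passed. Crypt markers lay above 0 in 8 of 8 (median 0.27) and Paneth cell markers in 5 of 5 (median 0.30) for the same change, with 0 passed. Enterocyte markers lay below 0 in 9 of 12 for it (median -0.14, 0 passed). When the 4 muscle-rich arrays were left out, 0 members passed, and the share of all genes that passed is not given here. The 6 genes then had differences of 0.55 to 1.09 and adjusted p-values of 0.132 to 0.239. The count also depended on single arrays and was 0 without any 1 of 6 arrays, Ex-4 1 h replicate 2 or 3, Ex-4 5 h replicate 3, PBS 1 h replicate 1 or 2, and PBS 5 h replicate 3.

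For Fgf7, 0 members passed at 1 h and at 20 h, where 0.00761% and 0.0456% of all genes did. An unadjusted p under 0.05 was found for 3 and 2 members, and for 997 and 529 of all 13144 genes. At 1 h these were Scap (0.28), Fads2 (-0.31) and Sqle (-0.35), with adjusted p-values of 0.614 to 0.655. Without overlap, 7 members were lower after Fgf7 at 1 h and 1 higher, against 6.76% and 8.15% of all genes. The 7 were Pmvk, Fdps, Sqle, Ebp, Dhcr7, Acly and Fads2, and the 1 was Scap. At 20 h they were Msmo1, given above, and Ebp (0.18, adjusted p = 0.999). At that time Msmo1 was lower without overlap, and Scd1 and Scd2, 2 members, were higher, against 4.3% and 5.06% of all genes. Ex-4 against Fgf7 at 1 h gave 0 calls among the members (0.00761% of all genes). It gave 4 unadjusted p-values under 0.05, where 755 of all 13144 genes had such a p. Stard4 was lowest in p (-0.33, adjusted p = 0.659). There 4 members were lower and 2 higher without overlap, against 6.98% and 6.4% of all genes. The PBS groups of the 3 times did not differ by the test for any member, with 0 calls among all genes too. In each of 3 comparisons 1 to 3 members were under an unadjusted p of 0.05, as were 561 to 721 of all genes. Of these members, Insig2 was higher at 20 h than at 5 h (0.25, adjusted p = 0.424).

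Scd1, the stearoyl-CoA desaturase, had the largest SD of any member within a group, 1.16 in both the Ex-4 group at 20 h and the PBS group at 1 h. At 20 h it had 9.19, 9.10 and 7.14 on the Ex-4 arrays, 7.65, 7.29 and 7.38 on the Fgf7 arrays and 7.07, 7.18 and 7.12 on the PBS arrays. The Ex-4 group was split, with 1 array at the level of PBS, and the difference of 1.35 ± 0.52 did not pass (adjusted p = 0.226). Without that array, replicate 3, it was 2.02 (adjusted p = 0.0295). That was the 1 fit to pass of the 6 that left out 1 array. Of 11 other settings 0 passed, with differences of 0.20 to 2.79. At 1 h Scd1 had 7.89, 7.27 and 7.56 after Ex-4 and 9.82, 7.51 and 8.91 after PBS, where the PBS group was the uneven one.

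Some markers of fat cells varied with Scd1 between arrays. A list of 9 such markers was written after Scd1 had been seen to vary with Adipoq, Lpl and Car3, so that their agreement with Scd1 is partly set by the choice. Of these 8 had a named probe, 6 were tested (Adipoq, Retn, Cidec, Lep, Car3 and Lpl), and only Cidec was above the dim level on all arrays. The list did not move as one. Against PBS, Cidec differed by -0.29 at 5 h and -0.20 at 20 h after Ex-4, where Scd1 differed by 0.59 and 1.35, and Lep differed by -0.03 at 20 h. Adipoq, Lpl and Car3 differed by 0.98, 0.60 and 0.47 at 20 h, and 0 of the 6 passed at any time. The 6 arrays highest for Scd1, at 8.91 to 9.82, were also the 6 highest for the mean of these markers, at 0.14 to 0.46, against -0.16 to 0.06 on the other 24 arrays. Those 24 had Scd1 at 7.07 to 7.93. Adipoq, the adiponectin gene, lay above the dim level on all 6 and on 4 of the 24. By group, the marker mean ran at 20 h from -0.14 to 0.42 after Ex-4 and from -0.16 to -0.07 after PBS. With it as a covariate, the 9 genes that rose at 5 h all still passed.

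**Figure D5:**
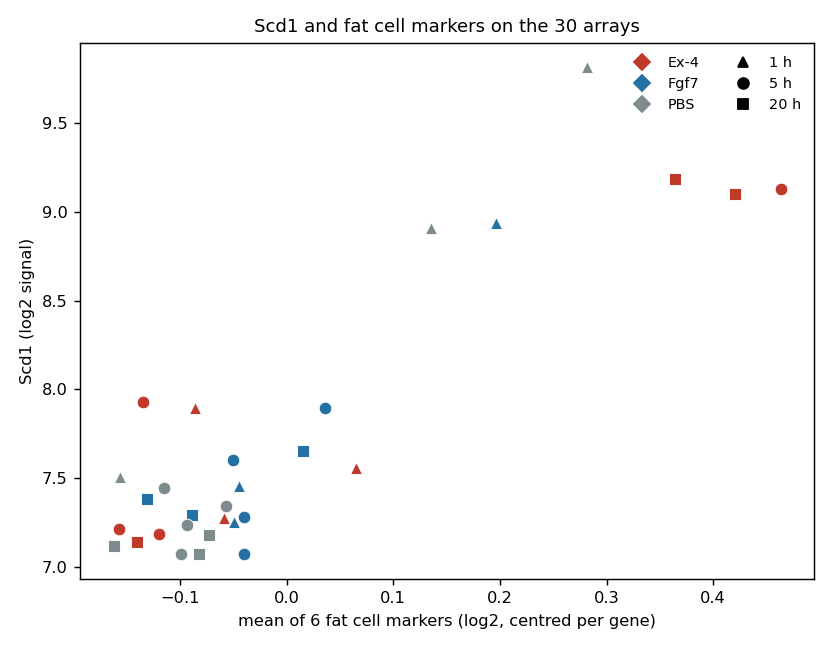
Log2 signal of Scd1 (vertical axis) against the mean of 6 fat cell markers (horizontal axis, log2, centred per gene) on each of the 30 arrays, with colour for the agent and shape for the time. The 6 arrays with Scd1 at 8.91 to 9.82 lie right of all others, and they come from Ex-4, Fgf7 and PBS groups.

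The other genes of fatty acid synthesis changed little. Elovl6, which lengthens palmitate, had 11.07, 10.78 and 10.48 after Ex-4 and 10.66, 10.15 and 10.40 after PBS at 20 h (0.38, adjusted p = 0.152), and the groups overlap. Elovl6 passed without Ex-4 replicate 3 (0.52, adjusted p = 0.0272) or without PBS replicate 1 (0.50, adjusted p = 0.0456). These were 2 of the 6 fits that left out 1 array, and 0 of 11 other settings passed. Its second probe gave 0.11 (adjusted p = 0.925). At 5 h the Ex-4 differences were 0.29 for Fads1 and 0.01 for Fads2, which make polyunsaturated fatty acids, 0.04 for Fasn and -0.05 for Scd2. Fasn and Scd2 lay near the dim level, with means of 7.23 and 7.26.

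Genes around the pathway were counted in 3 further lists. Of 11 genes of sterol flux and LXR targets 6 were tested and 3 fell at 5 h after Ex-4, the importer gene Npc1l1 (-0.48) and the exporter genes Abcg5 (-0.46) and Abcg8 (-0.60), with adjusted p-values of 0.00539, 0.00695 and 0.0113. Without the 4 muscle-rich arrays they differed by -0.40, -0.42 and -0.67 and did not pass (adjusted p = 0.0913, 0.0903 and 0.0512). Npc1l1 averaged 11.49 ± 0.10 after Ex-4 and 11.98 ± 0.11 after PBS (SD, n = 4 each), and its effect at 20 h minus that at 5 h was 0.57 (adjusted p = 0.0357), or 0.48 without those arrays (adjusted p = 0.152). At 20 h the 3 genes differed from PBS by 0.08, -0.01 and 0.12. Against Fgf7 at 5 h they had -0.34, -0.36 and -0.50 and did not pass (adjusted p = 0.0686, 0.0537 and 0.0537). Of 7 tested genes of SREBP processing and sterol sensing, 0 passed at 5 h after Ex-4. An unadjusted p under 0.05 was found for 2 of them, and for 1485 of all 13144 genes.

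Of 13 tested genes that are reported as further SREBP targets, 0 passed at 5 h after Ex-4 (median 0.08). An unadjusted p under 0.05 was found for 6 of them, and for 1485 of all 13144 genes. Lpin1, a phosphatidate phosphatase, came closest (0.21, adjusted p = 0.0603) and was higher than after Fgf7 (0.28 ± 0.05; adjusted p = 0.0109), a call lost without the muscle-rich arrays (0.27, adjusted p = 0.0671). At 20 h Aldoc, an aldolase, fell, averaging 8.12 ± 0.10 after Ex-4, 9.25 ± 0.25 after Fgf7 and 9.29 ± 0.10 after PBS (SD, n = 3 each). The difference from PBS was -1.17 ± 0.14 (adjusted p = 9.16e-06), and that from Fgf7 was -1.13 (adjusted p = 1.54e-05). Of the enterocyte markers, Lct, the lactase gene, fell at 20 h after Ex-4 (-0.63, adjusted p = 0.00408), and its part in the values of the sterol genes at this time was not tested.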

How the data were processed

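Values are the log2 signals per probe and array that the authors deposited. The sources used here do not name their normalisation. At any 1 rank, the arrays' values had an SD of at most 0.00218. Per the labels' protocols, RNA from a 2 cm piece of jejunum was extracted with Trizol and 1500 ng of cRNA per sample was labelled with an Illumina TotalPrep-96 kit. A table of non-normalized values was not used, because its 60 value columns match no sample label.

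The annotation gave 1 symbol to 34885 of the 45281 probes, more than 1 to 18 and no symbol to 10378, and 34807 matched RefSeq gene names (GRCm38.p6). The dim level of 7.18 is what a share of 0.01 of a normal background with the mode (7.02) and lower-tail SD (0.0714) of the signals would pass. Probes above it on at least 3 arrays were kept (26462). With the brightest probe per gene, 13144 genes remained. A mean for each of 9 groups was fitted with limma and moderated variances (residual df 21, prior df 4.61, residual SD 0.107 at the median gene), with Benjamini-Hochberg adjustment over all genes. An adjusted p under 0.05 counted as passed. The number of arrays limits the precision. Folds are on the deposited scale and understate changes of dim genes.

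The members and lists were chosen with earlier results of these data known. Each member is named at least once. Values per array are given for members that passed, in the comparison where they passed, and for Insig1, Scd1, Srebf1 and Elovl6, which were added after their values were seen. Of each other list at most 4 passing genes per comparison are named, by smallest p; Lpin1 at 5 h against PBS was added. Same-numbered arrays deviated together with every pair over r = 0.1 for Fgf7 against PBS at 1 h (0.143 to 0.258) and 20 h (0.215 to 0.612) only. For Ex-4 against PBS, same-numbered pairs had 0.089 to 0.285 at 1 h, against -0.266 to -0.018 for other pairs. At 5 h they had 0.035 to 0.651 against -0.574 to 0.402, and at 20 h 0 to 0.363 against -0.27 to 0.054. The main fit did not use the numbers, and the labels do not say what a number shares. Among the alternatives, single arrays were left out, the fit was limited to the groups compared, or a step was changed in the filter, variance model, background, probe or covariates. The fat cell list and covariate, a replicate block within each time, and the fits of Insig1 probes and other named genes without the muscle-rich arrays were chosen after seeing the data. The code was tested on simulated data. Versions were R 4.3.3, limma 3.58.1, data.table at 1.17.8, Python 3.11.15, pandas 2.3.3 and matplotlib 3.10.9.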

Additional observations from a re-analysis of the deposited data

Results flagged for a closer look

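Among the members at 5 h, 5 of the 87 groups of 4 arrays had 1 array apart from the rest by Dixon's criterion, which chance gives in about 1 in 20 groups. Idi1 was lowest on Fgf7 replicate 2 (7.51, others 7.89 to 7.95) and highest on PBS replicate 4 (8.32, others 7.48 to 7.61). Fdps was low on Fgf7 replicate 4 (10.62, others 11.04 to 11.10). Srebf2 was low on Ex-4 replicate 2 (8.62, others 8.83 to 8.86), and Aacs was high on PBS replicate 2 (9.53, others 9.10 to 9.13).

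The effect of Ex-4 differed between times by limma's test of the difference itself. At 20 h minus 5 h it was -0.99 for Mvd, -1.47 for Fdps, -1.23 for Sqle, -1.32 for Lss, -1.20 for Cyp51, -1.54 for Msmo1, -0.50 for Hsd17b7, -0.56 for Srebf2 and -0.85 for Aacs. At 5 h minus 1 h it was 1.26 for Fdps, 1.08 for Lss, 1.11 for Cyp51, 0.79 for Msmo1, 0.56 for Hsd17b7 and 0.96 for Aacs.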

How the results depend on the processing

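The counts of members that passed are given here against the counts from all arrays, which were 9 for Ex-4 against PBS at 5 h, 1 at 20 h, 6 and 1 for Ex-4 against Fgf7 at 5 and 20 h, and 9 and 6 for the change of the Ex-4 effect at 20 h against 5 h and at 5 h against 1 h. When only the groups compared were fitted, the counts were 3 for Ex-4 against PBS at 5 h, 2 and 0 for Ex-4 against Fgf7 at 5 and 20 h, and 5 and 2 for the changes of effect. Fewer arrays estimate the spread in that fit. With background subtracted, 2 passed for Ex-4 against Fgf7 at 5 h and 0 for the 5 h against 1 h effect. When the 4 muscle-rich arrays were left out, 3 passed for Ex-4 against PBS at 5 h, 1 for Ex-4 against Fgf7 at 5 h, and 5 and 0 for the changes of effect. With the fat cell mean as a covariate, 2 passed for Ex-4 against PBS at 20 h and 2 against Fgf7 at 20 h, Msmo1 and Srebf1 in both (Srebf1 -0.49 and -0.44), and 2 for the 5 h against 1 h effect. The cause was not tested where none is given. The share of all genes that passed in each of these fits is not given here. The counts therefore do not show whether a change is particular to the members. Leaving out 1 array gave 8 to 9 calls for Ex-4 against PBS at 5 h, 1 to 3 at 20 h, 1 to 6 and 0 to 1 for Ex-4 against Fgf7 at 5 and 20 h, and 7 to 9 and 0 to 8 for the changes of effect. The second probe of Lss reversed its sign in 4 results (-0.12 against PBS and -0.12 against Fgf7 at 5 h, 0.15 for 20 h against 5 h and -0.21 for 5 h against 1 h). With a replicate block, 9 members passed for Ex-4 against PBS at 5 h and 8 for the 5 h against 1 h effect, and with a replicate block within each time 9 and 6; the block moved no count of members by over 1.5 times. The other counts, at 1 h, for Fgf7 and between PBS groups, were 0 under each of the 11 other settings. Signal over background limits Mvk, Fasn, Scd1 and Scd2, which lay near the dim level on several arrays.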

Other observations

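Idi1 and the brightest probe of Insig1 varied together between arrays of the same group. Idi1 had 7.41, 7.55 and 7.84 after Ex-4, 7.45, 7.81 and 8.26 after Fgf7 and 7.69, 7.72 and 8.45 after PBS at 20 h. The array highest for Idi1 was also highest for that Insig1 probe in 7 of 9 groups, and for the second and the third probe in 1 each. In groups of 3 or 4 arrays some matches arise by chance, and their expected number was not computed. Matches at 20 h were replicate 3 of each agent. Further matches were Fgf7 1 h replicate 3 and replicate 4 of Ex-4 and PBS at 5 h. These arrays stand together at the end of the series' sample order, and what they share was not tested. In PBS at 1 h the match was replicate 1, earlier in that order. The relations of Idi1, Fdps and the Insig1 probes were chosen after the values had been seen. The 5 relations were computed over the 30 arrays on deviations from group means, with permutation within groups. The p-values, and their adjustment over these 5, allow neither for that choice nor for the sample order. The permutations treated the arrays of a group as exchangeable. Idi1 and the brightest Insig1 probe gave r = 0.905 (permutation p = 2e-05, adjusted 7.5e-05) and rho = 0.908 (permutation p = 2e-05, adjusted 5e-05), and r = 0.905 without the 2 arrays farthest from the median. The second and the third Insig1 probe gave r = 0.855 (permutation p = 3e-05, adjusted 7.5e-05) and rho = 0.839 (permutation p = 1e-05, the smallest that the permutations can give, adjusted 5e-05), and r = 0.829 without the 2 farthest arrays. The second and the brightest gave r = -0.244 (permutation p = 0.34) and rho = -0.216 (permutation p = 0.31), adjusted 0.34 and 0.31, and r = -0.172 without the 2 farthest. Fdps gave r = 0.621 (permutation p = 0.00182, adjusted 0.00303) and rho = 0.627 (permutation p = 0.00355, adjusted 0.00592) with the second Insig1 probe, and r = 0.595 without the 2 farthest. With the brightest, Fdps gave r = -0.416 (permutation p = 0.0346, adjusted 0.0432) and rho = -0.421 (permutation p = 0.0433, adjusted 0.0541), and r = -0.45 without the 2 farthest.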
